A study of Mus musculus with 18 samples.

Results

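Mouse long-term haematopoietic stem cells kept for 48 h in culture at pH 7.4 were compared with cells labelled as fresh, uncultured controls at the same pH. The members were the sequencing libraries of these 2 groups with at least 100000 counts and at least 10000 genes detected, which left 10 of 12 libraries, out of 18 in the series. All 6 cultured libraries passed (replicates 1 to 6). Fresh replicates 2, 3, 5 and 6 passed, fresh replicate 1 held 6311 counts, and fresh replicate 4 had 9408 genes detected.

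The series asked how the pH of the medium changes these cells, and its other cultured group, at pH 6.9, enters here only in alternative fits. Cells came from the bone marrow of B6.SJL mice aged 8 to 12 weeks, with the genotype given as c57 B6 WT, and the data were collected from 6 individual mice. Each library was made from 100 sorted cells, amplified with the SMART-Seq method for very small RNA inputs. Cultured cells were held in IMDM medium with 10% fetal bovine serum and cytokines that included SCF and G-CSF at 50 ng/ml, at 37 °C, 5% CO2 and 3% O2, so that serum, cytokines, oxygen and time all differ from the fresh group along with culture itself. The sort gate, and whether cells were sorted again after culture, are not given in the sources used here.

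Long-term haematopoietic stem cells are rare marrow cells that can renew the whole blood system, and most of them rest outside the cell cycle in the marrow. Cytokines such as SCF, which acts on the receptor Kit, bring them into the cycle, with growth of the ribosome pool and of mitochondrial respiration before division. Lysosomes and autophagy are known to be active in resting stem cells, and genes of mitosis are used as markers of cells that have entered division.

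Total counts ran from 1923443 to 6957557 over the 10 libraries, with a mean of 3577190 ± 413824 (SD, n = 4) in the libraries labelled fresh and 4512790 ± 2066460 (SD, n = 6) in the cultured ones (exact two-sided permutation test over 210 splits, p = 0.41). The number of genes detected ran from 11250 to 12792 (exact permutation p = 0.852). Ribosomal protein genes took 5.29% ± 1.09 of counts in the libraries labelled fresh and 3.88% ± 0.592 in the cultured ones (exact permutation p = 0.0286, 0.114 after adjustment over 4 library measures). Levels are given below in CPM, counts scaled to 1000000 per library after TMM scaling, which are not divided by transcript length, so they are compared within a gene and not between genes. Values of the libraries labelled fresh are listed in the order of replicates 2, 3, 5 and 6.

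The libraries labelled fresh did not stand apart as a group. Over the 10242 genes tested, Pearson's r of log2 CPM between 2 libraries labelled fresh was 0.897 to 0.935 (median 0.921, 6 pairs). Between a library labelled fresh and a cultured library it was 0.855 to 0.960 (median 0.899, 24 pairs). The cultured libraries split by mouse number. Those of the even-numbered mice (2, 4 and 6) correlated with one another at 0.952 to 0.974 and with the libraries labelled fresh at 0.891 to 0.960 (median 0.932). Cultured libraries of the odd-numbered mice (1, 3 and 5) correlated with one another at 0.873 to 0.905 and with the libraries labelled fresh at 0.855 to 0.914 (median 0.875). Fresh replicate 5 correlated with cultured replicates 2 and 6 at 0.958 and 0.960, above its correlation with any other library labelled fresh. Mki67, Top2a and Ccnb2, genes of dividing cells, stood at 161 to 518 CPM in every library labelled fresh and at 94.8 to 477 CPM in the cultured ones. Most long-term stem cells rest, as stated above, but no library here serves as a resting reference. How many cells of each pool held these transcripts, and whether the label holds, was not tested. The label is used below as given.

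**Figure D1:**
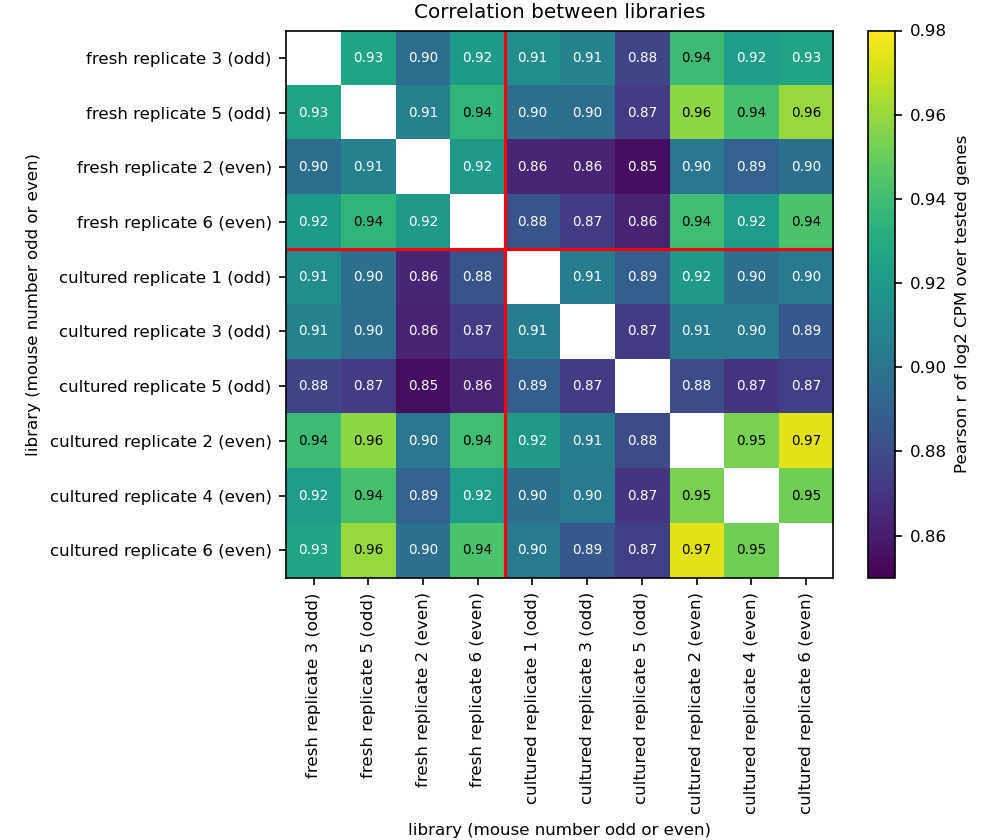
Pearson's r of log2 CPM over 10242 genes for each pair of the 10 libraries, ordered as labelled fresh (first 4) and cultured (last 6), with red lines between the groups. The 3 cultured libraries of even-numbered mice correlate at 0.952 to 0.974, a range that also holds fresh replicate 5 with cultured replicates 2 and 6 (0.958 and 0.960), and the libraries labelled fresh are closer to them than to the cultured libraries of odd-numbered mice.

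Mouse parity is also the first sequencing index in the library titles: index 701 for fresh odd, 702 for fresh even, 707 for cultured odd and 708 for cultured even libraries. No first index occurs in both groups. Culture and first index therefore change together, over all mice and within each parity, and cannot be told apart. Each comparison was run over all mice and again within each parity, and neither run separates culture from first index. The 2 within-parity comparisons share no library, but they come from the same fit and share its scaling and its estimate of spread. Nothing in the sources says whether parity was a separate day or sort. In libraries from whole cells, fewer cells of a type and less RNA per cell cannot be told apart either.

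Over all mice, 0 of 10242 genes (0%) passed edgeR's quasi-likelihood test at an adjusted p under 0.05, and the smallest adjusted p was 0.238. At an unadjusted p under 0.05, 437 genes (4.27%) were higher and 498 (4.86%) lower in the cultured libraries, together 9.13%. Of all genes, 52.5% had a positive log2 fold change, with a median of 0.02 and a median standard error of 0.286. In 92 genes (0.898%) every cultured library was above every library labelled fresh, and in 88 genes (0.859%) every one was below, together 1.76%. The p-values measure the spread between these mice as labelled. With odd or even mouse number as a term in the model, 7 genes were called: Slc39a4, Itgb5, Abi3, Cd96, Rhot1 and S1pr1 were higher and Sprr2a1 was lower. DESeq2 called 10 genes, 3 higher (Mfsd9, Cd96, Filip1l) and 7 lower (Sprr2a1, H2-Ab1, Selenow, Arl5c, Clu and Uchl1 among them).

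The genes with the smallest unadjusted p and a level of at least 10 CPM are described here as values, since none was called in edgeR's test over all mice. Higher in culture were a surface receptor of lymphocytes and stem cells (Cd96), a mitochondrial transport protein (Rhot1), catalase (Cat), a fatty acid oxidation enzyme (Cpt2) and an iron-release receptor (Ncoa4), by 0.79 to 1.13 on the log2 scale. Lower were a keratinocyte envelope gene (Sprr2a1), an MHC class II chain (H2-Ab1), a selenoprotein (Selenow) and a neuronal ubiquitin hydrolase (Uchl1). Of the 15 such genes given below (8 higher and 7 lower), 13 had groups that did not overlap, beside 1.76% of all genes. In all 15 both within-parity estimates had the same sign as the pooled one. The parities agreed in sign in 53.5% of all genes. Choosing genes by the smallest p over the same libraries favours both traits, so neither is separate support.

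Cd96 (chr16:46035657-46120251, minus strand), a receptor of the immunoglobulin family, stood at 27.7, 73.3, 50.2 and 33.3 CPM in the libraries labelled fresh and at 78.1 to 132 CPM (median 101) in the cultured ones. Every cultured library was above every one labelled fresh. The log2 fold change was 1.13 ± 0.26 (SE, edgeR adjusted p = 0.501), 0.90 ± 0.25 within odd and 1.53 ± 0.27 within even mouse numbers. In the latter the adjusted p was 0.043. With all 12 libraries its even-numbered value turned to -0.21 (adjusted p = 0.914).

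Rhot1 (chr11:80209019-80267907, plus strand), a GTPase that moves mitochondria along microtubules, stood at 90.2, 158, 125 and 112 CPM against 177 to 276 CPM (median 218) after culture. All 6 cultured libraries were above the 4 others, and the log2 fold change was 0.86 ± 0.20 (edgeR adjusted p = 0.501), 0.88 in the odd and 0.84 in the even mice. Cpt2 (chr4:107903981-107923610, minus strand), the inner-membrane enzyme of carnitine-dependent fatty acid import, stood at 28.0, 46.8, 48.9 and 31.4 CPM against 59.3 to 97.3 CPM (median 70.9). Its groups did not overlap either, at a log2 fold change of 0.92 ± 0.22.

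Cat (chr2:103453849-103485160, minus strand), which breaks down hydrogen peroxide, had 185, 269, 329 and 251 CPM in the libraries labelled fresh. After culture it had 361 to 601 CPM (median 446), above all of those, with a log2 fold change of 0.82 ± 0.20 over all mice and the same size in each parity (0.82 and 0.83). Selenop (chr15:3268547-3280508, plus strand), a secreted selenium carrier, had 62.5, 88.1, 77.5 and 47.3 CPM against 96.1 to 205 CPM (median 127), again without overlap. Ncoa4 (chr14:32159865-32179855, plus strand), the receptor that delivers ferritin to the autophagosome, had 196, 340, 224 and 223 CPM against 324 to 525 CPM (median 424). Fresh replicate 3 overlapped the lowest cultured library there, and the log2 fold change was 0.79 ± 0.21.

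Filip1l (chr16:57353093-57573126, plus strand) showed the largest pooled value among the 8 higher genes, with 7.09, 8.93, 11.0 and 5.40 CPM against 14.6 to 49.2 CPM (median 24.8) and a log2 fold change of 1.71 ± 0.40. Cultured odd-numbered mice had the 3 highest levels. Phka2 (chrX:160502166-160598878, plus strand), a regulatory subunit of phosphorylase kinase in glycogen breakdown, had 18.4, 32.4, 28.0 and 25.1 CPM against 38.1 to 62.2 CPM (median 46.5), without overlap. Mfsd9, below the 10 CPM limit and named after its values were seen, had 0 counts in the 4 libraries labelled fresh and 2.41 to 6.00 CPM in all 6 cultured ones. Against a floor of 3 counts per library its mean cultured level was at least 4-fold higher (edgeR adjusted p = 0.289).

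Among the lower genes, Sprr2a1 (chr3:92215799-92221911, plus strand), one of a cluster of near-identical small proline-rich genes whose reads may be split between copies, had 5.80, 12.5, 10.7 and 11.4 CPM in the libraries labelled fresh. It was at 0 in 4 of 6 cultured libraries and at most 0.99 CPM in the others. The log2 fold change over all mice was -5.06 ± 0.86 (edgeR adjusted p = 0.238). In even-numbered mice, where all 3 cultured libraries were at 0, the level was at least 11-fold lower against the 3-count floor (edgeR adjusted p = 0.044).

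H2-Ab1 (chr17:34257689-34269419, plus strand), the beta chain of an MHC class II molecule that presents peptides to helper T cells, had 36.4, 25.6, 58.8 and 67.9 CPM against 7.35 to 23.6 CPM (median 16.2). No cultured library reached the lowest library labelled fresh, and the log2 fold change was -1.58 ± 0.33. H2-Aa, the alpha chain, was below the filter, with 19, 10, 28 and 84 counts against 0 to 6 counts, and was not tested. Cd74, the class II invariant chain, had 44.8, 1.41, 8.28 and 126 CPM against 0 to 8.00 CPM, with overlap in the odd-numbered mice. Not all class II genes were lower. H2-DMa had 54.1 to 90.2 CPM in the libraries labelled fresh and 66.6 to 146 CPM after culture, a log2 fold change of 0.31 ± 0.23. For H2-DMb1 the log2 fold change was -0.18 ± 0.33. Fresh replicate 6 was the highest library labelled fresh in neither gene. Of B cell transcripts, Cd79a had 18 counts in fresh replicate 6, the library with the highest H2-Ab1, H2-Aa and Cd74 levels, and 0 in all others. Cd79b, the other chain of the B cell receptor complex, had 44.4, 28.2, 30.7 and 27.0 CPM against 20.5 to 78.0 CPM, with fresh replicate 6 the lowest of those labelled fresh. The part of B cell transcripts in the class II levels was not tested.

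Selenow (chr7:15917208-15922402, minus strand), a small thioredoxin-like selenoprotein, had 260, 200, 168 and 200 CPM against 97.3 to 133 CPM (median 123), without overlap. Its log2 fold change was -0.79 ± 0.17. Uchl1 (chr5:66676091-66687234, plus strand), a deubiquitinating enzyme best known from neurons, had 19.6, 12.0, 6.68 and 18.1 CPM against 1.45 to 5.94 CPM (median 2.16), a log2 fold change of -2.13 ± 0.49. Cultured levels lay below all 4 others for both genes.

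Arl5c, a small GTPase, had 11.3, 9.64, 25.4 and 15.2 CPM against 2.31 to 6.77 CPM, and Cenpb, a centromere protein, had 49.0, 24.0, 24.0 and 21.0 CPM against 8.77 to 16.4 CPM. Clu, a secreted chaperone, had 118, 179, 51.3 and 56.2 CPM against 20.5 to 58.8 CPM, where cultured replicate 1 overlapped the libraries labelled fresh.

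**Figure D2:**
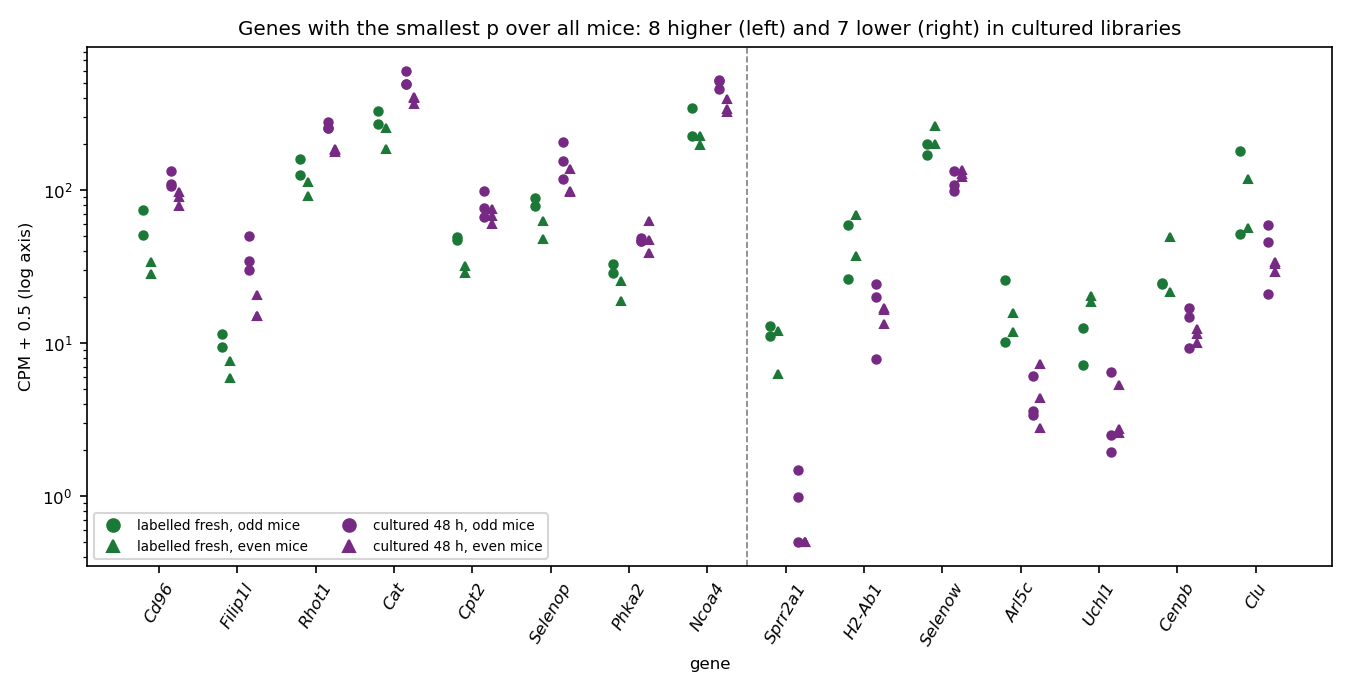
CPM plus 0.5 on a log axis for 8 higher and 7 lower genes of smallest unadjusted p over all mice, with 1 point per library (4 labelled fresh in green, 6 cultured in purple, circles for odd-numbered and triangles for even-numbered mice). The groups are separate in all of these genes except Ncoa4 and Clu, and cultured Sprr2a1 is at 0 in 4 libraries.

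Within odd-numbered mice, 2 libraries labelled fresh and 3 cultured ones were compared, and 9 of 10242 genes (0.0879%) passed edgeR's test at an adjusted p under 0.05. Within even-numbered mice, with 2 and 3 libraries, 12 genes (0.117%) passed. No gene passed in the same direction in both (0%), although 6 did with DESeq2: Slc39a4, Rhot1, Abi3, Cat, Litaf and Sprr2a1. Across genes, the log2 fold changes of the 2 parities had the same sign in 53.5% of genes and correlated at r = -0.0224, rho = 0.0723, where genes are not independent replicates. The genes called within a parity that are named below were chosen after their values were seen, apart from those of the rule used above.

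In odd-numbered mice, 8 genes rose (0.0781%) and 1 fell (0.00976%). S1pr1, the sphingosine-1-phosphate receptor that guides blood cells out of the marrow, had 22.8 and 18.7 CPM in the libraries labelled fresh and 91.6, 63.9 and 99.6 CPM after culture, a log2 fold change of 2.03 ± 0.33 (edgeR adjusted p = 0.046). All 3 cultured libraries were above both others. Itgb5, an integrin beta chain of vitronectin receptors, had 2.35 and 3.21 CPM against 69.4, 53.2 and 21.2 CPM, a log2 fold change of 4.10 ± 0.69 (adjusted p = 0.046). In even-numbered mice its log2 fold change was 4.96 ± 1.07 (adjusted p = 0.135), from levels of 0.32 and 0 against 5.47, 9.42 and 2.89 CPM. The levels labelled fresh there are below a floor of 3 counts per library, so this fitted size is no bound.

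Other rises in odd-numbered mice were in Lpcat2, which makes platelet-activating factor and membrane lipids (2.88 ± 0.48), Rgs12, a brake on G protein signalling (2.45 ± 0.42), Htra3, a secreted serine protease (2.53 ± 0.44), and Rab38, a GTPase of lysosome-related organelles (1.23 ± 0.21), all log2 fold changes with adjusted p = 0.046. Fabp5, a fatty acid carrier, fell by 1.94 on the log2 scale, from 60.6 and 102 CPM to 19.3, 20.6 and 23.6 CPM. In even-numbered mice the cultured levels overlapped those labelled fresh for Htra3 (11.5, 5.96 and 4.33 CPM against 8.05 and 16.5) and Rgs12 (18.7, 15. and 13.5 CPM against 35.7 and 12.4). The difference between parities in these genes did not pass (adjusted p = 0.062 for both).

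Wdfy1, an endosomal adaptor of Toll-like receptor signalling, and Rps4l, a retrogene copy of a ribosomal protein gene, also rose in odd-numbered mice, and in both the low values were those labelled fresh. Wdfy1 (chr1:79702262-79776143, minus strand) had 13.6 and 11.0 CPM in fresh replicates 3 and 5 and 70.9 to 174 CPM in the other 8 libraries. Its log2 fold change was 3.66 ± 0.28 in odd-numbered mice (edgeR adjusted p = 1.96e-05) and 0.44 ± 0.23 in even-numbered mice. Rps4l (chr6:148354656-148355598, plus strand) had 4.94 and 5.07 CPM in the same 2 libraries and 28.6 to 51.6 CPM in the other 8, a log2 fold change of 2.98 ± 0.40 (adjusted p = 0.0129). Reads of Rps4l may be shared with its parent gene.

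In even-numbered mice, 6 genes rose (0.0586%) and 6 fell (0.0586%). Slc39a4, a zinc importer, had 4.51 and 1.59 CPM in the libraries labelled fresh and 22.9, 26.0 and 18.9 CPM after culture, a log2 fold change of 2.88 ± 0.45 (edgeR adjusted p = 0.0374). In odd-numbered mice it had 19.0 and 16.6 CPM against 65.5, 65.6 and 96.8 CPM, a log2 fold change of 2.09 ± 0.38 that stopped short of the threshold (adjusted p = 0.0626). Within each parity its cultured libraries were all above both others, while over all mice the groups overlapped by 1 cultured library.

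Ptgr1, a prostaglandin and leukotriene reductase, had 6.12 and 8.89 CPM against 43.7, 40.8 and 34.9 CPM (log2 fold change 2.40 ± 0.37). Trpv2, a calcium-permeable channel, P2ry2, a receptor for extracellular nucleotides, Spns3, a transporter-like membrane protein, and Cd96 made up the rest, at log2 fold changes of 1.32 to 2.79. Libraries labelled fresh from odd-numbered mice already stood at higher levels of Ptgr1 (23.5 and 26.7 CPM), Trpv2 (14.6 and 24.0 CPM) and P2ry2 (16.92 and 21.9 CPM) than those from even-numbered mice.

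The 6 genes that fell in even-numbered mice included 2 class I-like MHC genes of the Q region. H2-Q6 went from 172 and 129 CPM to 35.2, 39.4 and 27.6 CPM (log2 fold change -2.15 ± 0.31, edgeR adjusted p = 0.0374), and H2-Q7 from 290 and 223 CPM to 64.1, 65.6 and 52.1 CPM (-2.08 ± 0.34, adjusted p = 0.041). In odd-numbered mice the log2 fold changes were -0.15 ± 0.32 and -0.17 ± 0.34. These 2 genes are near copies, so their counts are not independent. H2ac18, a replication-dependent histone gene with close copies, fell by 3.64 on the log2 scale, and Ctla2a and Sprr2a1 fell as well.

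The counts of genes called within a parity depended on single libraries, also on those of the other parity, which enter the same fit. In odd-numbered mice 9 genes became 3 without fresh replicate 2, 20 without fresh replicate 3, 2 without fresh replicate 5, 3 without fresh replicate 6, 3 without cultured replicate 1, 4 without cultured replicate 5 and 2 without either cultured replicate 2 or cultured replicate 6. In even-numbered mice 12 genes became 0 without fresh replicate 2, cultured replicate 2 or cultured replicate 4, 1 without cultured replicate 6, 3 without fresh replicate 6, 7 without cultured replicate 1, 21 without fresh replicate 3 and 20 without fresh replicate 5. The count over all mice stayed at 0 without 9 of the 10 libraries and was 1, Sprr2a1, without cultured replicate 3. With the mouse number as a replicate block, 32 genes were called in odd-numbered mice (23 higher, 9 lower) and 11 in even-numbered mice. Of the genes called, Wdfy1 in odd-numbered mice passed under all 20 alternatives and Rps4l under 15.

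The culture difference itself differed between parities in 5 genes (0.0488%) by the interaction term of edgeR's test, 2 with the larger value in even-numbered mice (0.0195%) and 3 with the smaller (0.0293%). At an unadjusted p under 0.05 these shares were 5.74% and 4.58%. Ctla2a, a cathepsin inhibitor-like gene with a close copy, had 1382 and 1020.3 CPM in fresh odd libraries and 1603, 2159 and 3214 CPM in cultured odd ones. In even-numbered mice it had 3178 and 1499.05 CPM against 554, 591 and 414 CPM, where it fell by 2.17 on the log2 scale (adjusted p = 0.0374). The difference between the 2 effects was -3.12 ± 0.47 (adjusted p = 0.0332). Csf2rb2, a receptor chain for IL-3 with a close copy, had 10.8 and 10.1 CPM against 26.5, 58.7 and 84.0 CPM in odd-numbered mice and 39.6 and 16.2 CPM against 8.07, 6.54 and 4.97 CPM in even-numbered mice. Its 2 effects differed by -4.53 ± 0.72 on the log2 scale (adjusted p = 0.0332).

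Anxa2, a calcium-dependent membrane-binding protein, ran the other way, with 87.2 and 120 CPM against 31.3, 45.7 and 41.2 CPM in odd-numbered mice and 66.0 and 57.5 CPM against 127, 112 and 156 CPM in even-numbered mice. The difference between its effects was 2.47 ± 0.37 (edgeR adjusted p = 0.0332). Cenpa, the histone variant that marks centromeres, had 337 and 276 CPM against 172, 212 and 175 CPM in odd-numbered mice. Its levels in even-numbered mice were 140 and 130 CPM against 259, 302 and 320 CPM, a difference of 1.84 ± 0.29 between the effects (adjusted p = 0.0332). Wdfy1, with the values given above, was the fifth gene (-3.22 ± 0.35, adjusted p = 0.00177).

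With the replicate block, 62 genes passed the interaction test in place of 5. Leaving out 1 library gave 1 gene without fresh replicate 2, cultured replicate 2, cultured replicate 5 or cultured replicate 6, 2 without fresh replicate 5, 13 without cultured replicate 3 and 36 without fresh replicate 3.

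**Figure D3:**
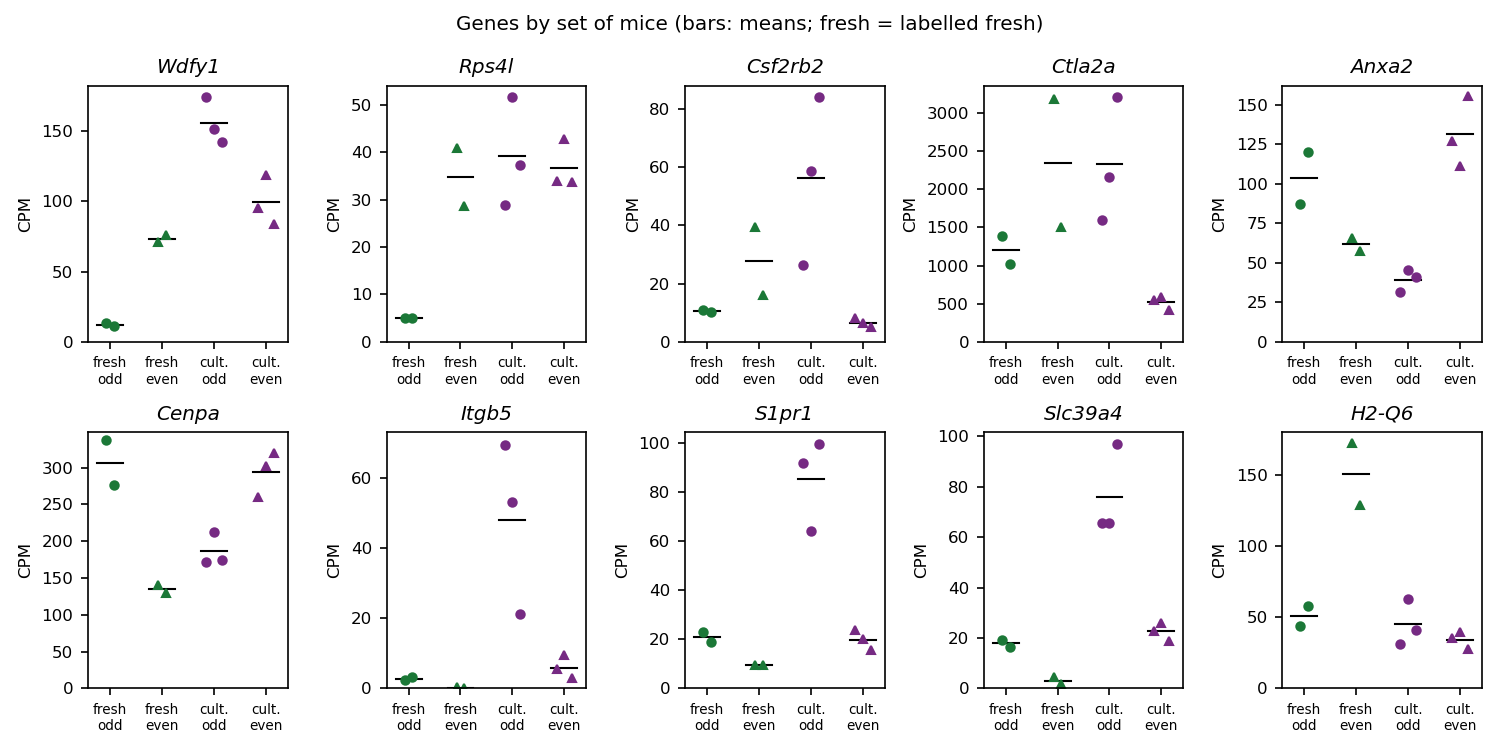
CPM of 10 genes in each library by set (labelled fresh or cultured, odd-numbered or even-numbered mice), with a bar at the set's mean and a linear axis from 0. Wdfy1 and Rps4l are low in the 2 fresh odd libraries and in no other set, Csf2rb2, Ctla2a, Anxa2 and Cenpa move in opposite directions in the 2 parities, and Itgb5, S1pr1 and Slc39a4 are higher after culture within each parity.

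The genes of protein synthesis and respiration were lower in culture as groups, with no member called in any of the edgeR comparisons. Of 79 cytosolic ribosomal protein genes tested, 0 had a positive log2 fold change over all mice. At an unadjusted p under 0.05, 51 were lower, beside 4.86% of all genes. The median was -0.62, beside 0.02 over all genes. In odd-numbered mice 5 of 79 were positive (median -0.40), and in even-numbered mice 0 (median -0.79). At an unadjusted p under 0.05, 7 were lower in odd-numbered mice, beside 5.19% of all genes. In even-numbered mice 45 were, beside 6.05% of all genes. Summed, they stood at 67460, 36620, 53540 and 57060 CPM in the libraries labelled fresh and at 30650 to 47260 CPM in the cultured ones. Fresh replicate 3 fell within the cultured range. Without that library the median over all mice was -0.79, the lowest of all settings tried, and the highest was -0.38. Over the settings the median ran from -0.63 to -0.085 in odd-numbered and from -0.99 to -0.51 in even-numbered mice.

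Rpl39, a short protein at the exit tunnel of the large subunit, had 252, 166, 234 and 276 CPM against 30.4 to 148 CPM (median 106), a log2 fold change of -1.16 ± 0.32 (edgeR adjusted p = 0.501). It and Rpl37a were the 2 members whose groups did not overlap, where 0.859% of all genes were lower without overlap. Cultured replicate 4 was far below the rest for several of the shortest transcripts, with Rpl37a at 70.0 CPM against 238 CPM in the next lowest library. Rplp0, a protein of the ribosomal stalk, had 3289, 1822, 2462 and 2579 CPM against 1486 to 2746 CPM, a log2 fold change of -0.20 ± 0.20.

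Nuclear-encoded respiratory chain subunits gave 8 positive values of 76 (median -0.50, 36 lower at an unadjusted p under 0.05 and 0 higher). The shares over all genes were 4.86% lower and 4.27% higher. Atp5k, a small subunit of ATP synthase, had 141, 87.7, 149 and 136 CPM against 9.42 to 80.7 CPM (median 54.5), without overlap. Cox7c, a small subunit of cytochrome oxidase, also had no overlap, with 460, 308, 540 and 475 CPM against 66.91 to 296 CPM, while Atp5b, the catalytic beta subunit, had 1960.4, 1881, 2222 and 2187 CPM against 1648 to 2569 CPM. Its log2 fold change was 0.02 ± 0.18. Mitochondrial ribosomal proteins gave 13 positive values of 75 (median -0.30, 20 lower), with Mrpl33 at 261, 152, 239 and 225 CPM against 66.5 to 170 CPM. Over the settings tried, the odd-numbered median ran from -0.572 to -0.049 for respiratory subunits and from -0.518 to -0.014 for mitochondrial ribosomal proteins.

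Members of these lists have short transcripts. The median annotated transcript had 696.5 bases for cytosolic ribosomal proteins, 659 for respiratory chain subunits and 1047 for mitochondrial ribosomal proteins. Over all tested genes the median log2 fold change was -0.12 for the 946 genes with a median transcript under 750 bases and -0.05 for the 836 of them outside the 3 lists. It was -0.015, 0.094 and -0.003 in the 3 classes of longer transcripts, divided at 1500 and 3000 bases. The class under 750 bases thus had the lowest median. Split by parity, the median of that class was -0.096 for odd and -0.206 for even mouse numbers. Genes under 750 bases took 14.93% to 18.03% of CPM in the libraries labelled fresh and 13.69% to 16.77% in the cultured ones. The part of transcript length in the lists' values was not tested.

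Ribosome biogenesis factors and MYC targets, with longer transcripts (median 1936 bases), gave 10 positive values of 61 (median -0.23), 9 lower at an unadjusted p under 0.05 and 0 higher. The shares over all genes were 4.86% lower and 4.27% higher. Nhp2, a protein of the small nucleolar RNA complex that modifies ribosomal RNA, had 865, 371, 671 and 767 CPM against 294 to 577 CPM (log2 fold change -0.65 ± 0.24). Ncl, or nucleolin, had 1628, 1255, 1615 and 2208 CPM against 782 to 1553 CPM (-0.49 ± 0.22), and both genes overlapped between groups. Myc itself had 386, 394, 497 and 714 CPM against 327 to 699 CPM (-0.03 ± 0.24). Srm and Odc1, enzymes of polyamine synthesis and known MYC targets, had log2 fold changes of -0.45 ± 0.34 and -0.31 ± 0.19.

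**Figure D4:**
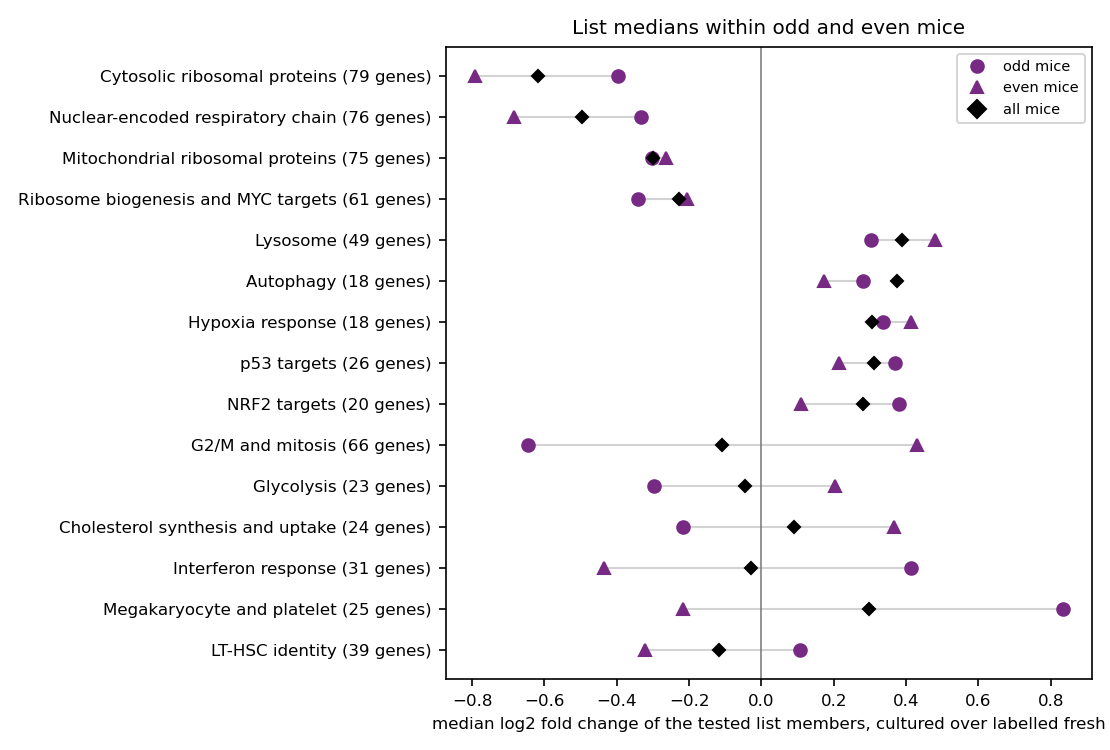
Median log2 fold change, cultured over labelled fresh, of the tested members of 15 gene lists, over all mice (diamonds) and within odd-numbered (circles) and even-numbered mice (triangles). Ribosomal and respiratory lists are below 0 and lysosome and autophagy lists above 0 in both parities, while G2/M, glycolysis, cholesterol, interferon, platelet and stem cell lists change sign between them.

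Lysosome genes were higher in culture in both parities, again with no member called. Of 49 tested, 42 were positive (median 0.39), with 41 positive in odd-numbered mice and 39 in the even-numbered ones. Over all mice 10 were higher at an unadjusted p under 0.05 and 0 lower, beside 4.27% and 4.86% of all genes. Grn, the secreted and lysosomal progranulin, had 65.4, 127, 113 and 72.1 CPM against 102 to 227 CPM (median 160), a log2 fold change of 0.81 ± 0.26 (edgeR adjusted p = 0.501). The groups overlapped over all mice, and within each parity every cultured library was above both others.

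Atp6ap1, an accessory subunit of the vacuolar proton pump, had 129, 193, 209 and 147 CPM against 209 to 327 CPM (0.61 ± 0.19), and Asah1, acid ceramidase, had 113, 143, 173 and 112 CPM against 170 to 252 CPM (0.56 ± 0.18). Ctsd, the aspartic protease cathepsin D, differed in level between the parities, with 1675 and 1423 CPM against 2495, 2738 and 2069 CPM in odd-numbered mice and 533 and 466 CPM against 941, 1012 and 603 CPM in even-numbered mice. The log2 fold change was 0.65 ± 0.23 in the first and 0.77 ± 0.23 in the second. Cd63, a tetraspanin of late endosomes, did not follow, at 0.96 ± 0.29 and -0.49 ± 0.28.

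Autophagy genes gave 15 positive values of 18 (median 0.38) and 2 higher at an unadjusted p under 0.05, beside 4.27% of all genes. Those were Nbr1, a cargo receptor (31.6, 21.4, 29.4 and 24.8 CPM against 23.6 to 83.9 CPM), and Gabarapl1, which coats the autophagosome membrane (56.7, 61.6, 54.2 and 56.5 CPM against 53.2 to 122 CPM). Both overlapped between groups and had larger log2 fold changes in odd-numbered mice (1.12 ± 0.43 and 0.82 ± 0.26) than in even-numbered mice (0.23 ± 0.42 and 0.18 ± 0.26). The CLEAR core sequence TCACGTGA, read by the lysosomal regulator TFEB and chosen here after values were seen, lies in the 250 bases before the start of 3 of 38 lysosome genes with a promoter in the RefSeq table (7.89%). Over 8345 tested genes with a promoter the share was 1.69%. The MYC E-box CACGTG was in 3 of 54 ribosome biogenesis genes and MYC targets (5.56%), below the 8.81% of all such genes. The Y box CTGATTGG was in 0 of 5 MHC class II and dendritic genes, beside 6.23%. The E2F sequences TTTCCCGC and TTTGGCGC were each in 3 of 34 DNA replication genes (8.82%), beside 1.99% and 0.899%. The STAT sequence TTCNNNGAA was in 2 of 19 STAT feedback genes, beside 6.11%.

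Mitosis genes had opposite signs in the 2 parities. Over all mice 19 of 66 were positive (median -0.11) and 1, Mki67, was lower at an unadjusted p under 0.05, beside 4.86% of all genes. In odd-numbered mice 2 of 66 were positive (median -0.65), with 28 lower at an unadjusted p under 0.05, where the share over all genes was 5.19% lower and 5.48% higher. In even-numbered mice 56 were positive (median 0.43), with 12 higher, beside 6.64% of all genes higher and 6.05% lower. The effects differed at an unadjusted p under 0.05 in 36 of 66, beside 10.3% of all genes, and 1 of them, Cenpa, was called. Summed, the list stood at 17630 and 16400 CPM in fresh odd, 13160 and 13560 in fresh even, 13000, 13640 and 8363 in cultured odd, and 15170, 16320 and 17790 CPM in cultured even libraries.

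Several of these genes share the CHR element, TTTGAA or its reverse complement TTCAAA, through which the DREAM and MuvB complexes time expression to late cell cycle. It lies in the 250 bases before the start of 20 of 54 mitosis genes with a promoter in the table (37%), beside 10.7% of 8345 tested genes. The 4 stretches below, 80 bases each, 5′ to 3′ on the gene's own strand, are shown because their genes carry the element and are described next. Sequences are RefSeq's, build GRCm38.p6, and capitals mark the element on either strand.
Mki67, chr7:135716435-135716514, minus strand: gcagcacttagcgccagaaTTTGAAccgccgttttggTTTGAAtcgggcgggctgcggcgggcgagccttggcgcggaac
Top2a, chr11:99024190-99024269, minus strand: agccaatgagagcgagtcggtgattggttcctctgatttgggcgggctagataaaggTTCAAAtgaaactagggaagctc
Ccnb2, chr9:70421679-70421758, minus strand: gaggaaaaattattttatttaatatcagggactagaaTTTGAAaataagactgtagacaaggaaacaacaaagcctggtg
Hmgb2, chr8:57511763-57511842, plus strand: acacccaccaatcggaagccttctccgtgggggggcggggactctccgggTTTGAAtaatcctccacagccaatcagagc
A match is a description of these letters and not a measured binding site.

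Mki67, the marker of cycling cells, had 365, 349, 188 and 210 CPM in the libraries labelled fresh and 94.8 to 234 CPM (median 188) after culture, a log2 fold change of -0.61 ± 0.24 (edgeR adjusted p = 0.521). Top2a, which untangles DNA before division, had 327, 444, 322 and 316 CPM against 110 to 407 CPM (-0.25 ± 0.27). Both pairs of groups overlapped. Ccnb2, a mitotic cyclin, had 518 and 333 CPM against 417, 438 and 344 CPM in odd-numbered mice and 224 and 161 CPM against 385, 477 and 406 CPM in even-numbered mice. Its log2 fold changes were -0.09 ± 0.23 and 1.13 ± 0.24. Hmgb2, a chromatin protein of dividing cells, had log2 fold changes of -0.53 ± 0.20 and 0.20 ± 0.20.

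Of the genes of DNA replication, 22 of 43 were positive over all mice, 19 in odd-numbered mice and 25 in the even-numbered ones. At an unadjusted p under 0.05, 7 were lower and 1 higher in odd-numbered mice, beside 5.19% and 5.48% of all genes. In even-numbered mice 2 were lower and 3 higher, beside 6.05% and 6.64% of all genes. Pcna, the sliding clamp of DNA polymerase, had 706, 528, 659 and 697 CPM against 434 to 767 CPM (-0.07 ± 0.18). Mcm5, of the replicative helicase, had 305, 336, 295 and 260 CPM against 240 to 471 CPM (0.26 ± 0.19). The G1 kinases Cdk4 and Cdk6 had log2 fold changes of -0.09 ± 0.21 and -0.29 ± 0.20.

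Markers of another cell type also differed in sign between the parities, but in odd-numbered mice this rested on 1 library. Genes of granulocyte-monocyte progenitors and neutrophil granules had 12 members tested, of which 2 were positive in odd-numbered mice and 12 in the even-numbered ones. Mpo, myeloperoxidase, had 22.5, 3.996, 3112 and 85.1 CPM in the libraries labelled fresh, and after culture 8.19, 4.10 and 3.996 CPM in odd-numbered and 1092, 1029 and 3165 CPM in even-numbered mice. Fresh replicate 5 and the 3 cultured even libraries therefore held it at over 1000 CPM and the other 6 at under 100 CPM. The list's sum was 857.9 CPM in fresh replicate 3 and 7474 CPM in fresh replicate 5, against 1796, 1520 and 1382 CPM in the cultured odd libraries. Its median log2 fold change in odd-numbered mice was -3.535 with both fresh libraries and 0 without fresh replicate 5, from fitted values that include genes at 0 counts and are no bound. Ctsg, cathepsin G, had 721 CPM in fresh replicate 5 and 187, 131 and 590 CPM in cultured replicates 2, 4 and 6, and at most 19.7 CPM elsewhere. Elane, neutrophil elastase, had 312 CPM and 17.97, 35.2 and 216 CPM in these 4, and at most 3.49 CPM elsewhere.

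The basophil protease Mcpt8 followed them, with 556 counts in fresh replicate 5, 291, 158 and 559 in the 3 cultured even libraries, 14 in fresh replicate 6 and 0 in the other 5. Of late neutrophil genes, S100a8 had at most 6 counts in any library, and S100a9, Ngp and Camp at most 1 each. Ltf, another, had 17, 8, 0 and 3 counts in the libraries labelled fresh. It had 16 and 11 counts in cultured replicates 3 and 4 and 0 in the other cultured ones. The summed list ran from 857.9 to 7474 CPM in the libraries labelled fresh and from 1382 to 6686 CPM in the cultured ones, and its part in the parity differences above was not tested.

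**Figure D5:**
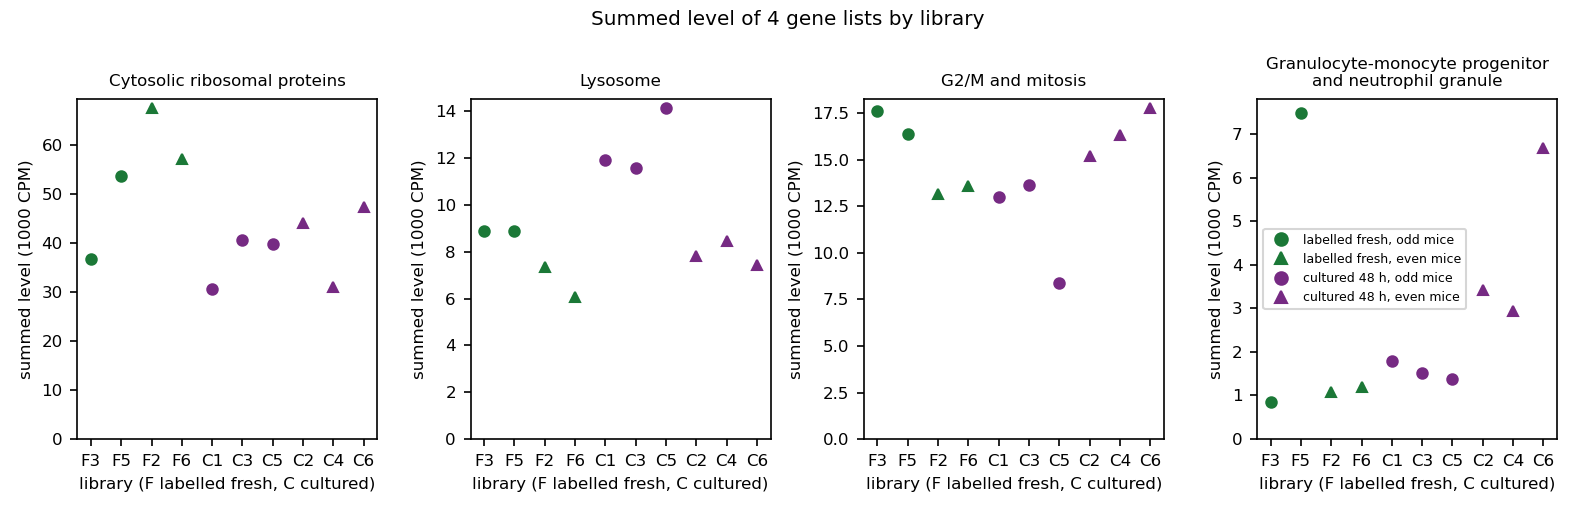
Summed CPM (in units of 1000 CPM, axes from 0) of 4 gene lists in each library, with libraries labelled fresh (F) in green and cultured (C) in purple, circles for odd-numbered and triangles for even-numbered mice. Ribosomal protein sums are lower in culture except against fresh replicate 3, lysosome sums are highest in cultured odd libraries, mitosis sums are lowest in cultured replicate 5, and granule sums are highest in fresh replicate 5 and the cultured even libraries.

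Stem cell identity genes showed no common direction, with 14 of 39 positive over all mice (median -0.12). In odd-numbered mice 23 were positive (median 0.11), with 6 higher and 0 lower at an unadjusted p under 0.05. In even-numbered mice 11 were positive (median -0.32), with 1 higher and 3 lower. The shares over all genes were 5.48% higher and 5.19% lower in odd-numbered mice, and 6.64% and 6.05% in even-numbered mice. Over all mice 2 were higher and 0 lower at that limit, beside 4.27% and 4.86% of all genes. Cd34, a sialomucin that appears as mouse stem cells leave the long-term state, had 668, 1076, 1007 and 667 CPM against 991 to 2103 CPM (median 1370.0), a log2 fold change of 0.74 ± 0.23 (edgeR adjusted p = 0.501). The groups overlapped in cultured replicate 6. Rbpms, an RNA-binding protein, was the other, at 0.56 ± 0.25. Hlf, a transcription factor of stem cells, had 59.9, 61.6, 35.5 and 51.1 CPM against 20.7 to 63.4 CPM (-0.46 ± 0.29), and Mecom had 21.6, 37.8, 9.88 and 18.4 CPM against 13.8 to 28.0 CPM (-0.08 ± 0.35). Procr, the surface marker EPCR, had 11.4 to 26.8 CPM in the libraries labelled fresh and 4.81 to 19.3 CPM after culture (-0.46 ± 0.39).

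The receptors of SCF and G-CSF overlapped between groups. Kit had 110, 205, 116 and 79.7 CPM against 83.8 to 168 CPM (-0.11 ± 0.26). Csf3r, the G-CSF receptor, had 26.1, 33.6, 62.2 and 37.8 CPM against 34.8 to 111 CPM (0.75 ± 0.34). Feedback genes of the STAT pathway that these receptors use gave 12 positive values of 25 (median -0.03). Cish had 52.8, 49.8, 19.5 and 58.7 CPM against 19.8 to 49.1 CPM, Socs2 17.36 to 52.4 CPM against 21.7 to 105 CPM, and Pim1 7.76 to 20.6 CPM against 5.52 to 16.2 CPM. None of these differences passed, with edgeR adjusted p of 0.539 or more.

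Immediate early genes, switched on within minutes by growth factors or by tissue dissociation, differed in level within the list. Fos had at most 12 counts and Fosb at most 1 in any library, so neither was tested. Of 17 tested, 12 were positive in odd-numbered mice and 4 in the even-numbered ones. Egr1 had 35.3 and 12.3 CPM against 85.8, 47.9 and 42.4 CPM in odd-numbered mice and 50.2 and 78.4 CPM against 19.0, 9.61 and 11.9 CPM in even-numbered mice. Its effects differed by -3.55 ± 0.66 (edgeR adjusted p = 0.066). Fosl1, a later member of the family, had 61.5, 29.4, 24.8 and 65.7 CPM against 6.75 to 27.41 CPM, a log2 fold change of -1.37 ± 0.37 over all mice (adjusted p = 0.501).

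Stress response lists held no called member and differed in direction. Heat shock chaperones gave 3 positive values of 16 (median -0.13), metallothioneins and zinc genes 2 of 6 (median -0.25), and ATF4 targets with tRNA synthetases 18 of 33 (median 0.01). NRF2 targets, which handle oxidants, gave 15 positive values of 20 (median 0.28). Gclc, the rate-limiting enzyme of glutathione synthesis, had 99.8, 158, 190 and 99.0 CPM against 175 to 688 CPM (median 231), a log2 fold change of 1.24 ± 0.40. Its levels in cultured odd libraries (688, 433 and 276 CPM) were above all others. Targets of p53 gave 16 positive values of 26 (median 0.31). Sesn1, a p53 and FOXO target that dampens mTORC1, had 51.9, 75.9, 80.9 and 48.6 CPM against 78.6 to 161 CPM (0.78 ± 0.22), with overlap in cultured replicate 6. Cdkn1a, the cell cycle inhibitor p21, had 97.5 and 87.3 CPM against 208, 401 and 230 CPM in odd-numbered mice (1.60 ± 0.32, edgeR adjusted p = 0.095). In even-numbered mice it had 41.2 and 71.7 CPM against 60.9, 76.7 and 58.2 CPM.

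Hypoxia response genes gave 14 positive values of 18 (median 0.31). At an unadjusted p under 0.05, 3 were higher and 1 lower, beside 4.27% and 4.86% of all genes. The lower one was Higd1a, at a log2 fold change of -0.54 ± 0.25. Culture was at 3% oxygen, and the part of oxygen in these values was not tested. Car9, a carbonic anhydrase controlled by HIF, had 16.1, 21.2, 23.8 and 14.0 CPM against 26.0 to 58.1 CPM (0.80 ± 0.30, edgeR adjusted p = 0.503), and its groups did not overlap. The glucose transporter Slc2a1 had 26.4, 70.5, 69.7 and 67.6 CPM against 62.0 to 113 CPM (0.36 ± 0.27). Ldha, lactate dehydrogenase A, had 2147, 2448, 2913 and 3480.0 CPM against 1846 to 3480.0 CPM (-0.05 ± 0.21). Neither separated the groups.

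Among metabolic lists, glycolysis and cholesterol genes differed in sign between the parities, while fatty acid synthesis genes were positive in 7 of 12 in each. Glycolysis genes were positive in 8 of 23 in odd-numbered mice and 18 of 23 in the even-numbered ones, with Gapdh at log2 fold changes of -0.68 ± 0.17 and 0.22 ± 0.18. Cholesterol synthesis and uptake genes were positive in 3 of 24 and 21 of 24. Hmgcs1, an early enzyme of that pathway, had 106 and 108 CPM against 70.8, 109 and 45.2 CPM in odd-numbered mice and 59.9 and 81.6 CPM against 115, 87.7 and 116 CPM in even-numbered mice.

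Interferon and platelet genes were more often positive in odd-numbered mice, with no test of that difference. Interferon response genes were positive in 23 of 31 in odd-numbered mice and 9 of 31 in the even-numbered ones. Gbp3, an interferon-induced GTPase, was lower in both, with 23.2, 16.5, 17.1 and 24.8 CPM against 3.20 to 13.8 CPM and no overlap (log2 fold change -1.18 ± 0.36). Megakaryocyte and platelet genes were positive in 24 of 25 in odd-numbered mice and 11 of 25 in the even-numbered ones. Pf4, platelet factor 4, had 435, 35.0, 250 and 297 CPM against 8.08 to 702 CPM and followed neither group nor parity.

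Some markers of other marrow cells were at or near 0 and others were not. Ncr1 of NK cells and Cxcl12 of stromal cells had 0 counts in all 10 libraries. Nkg7, listed with Ncr1 among T and NK cell genes, had 20.4 to 131 CPM in the libraries labelled fresh and 9.60 to 107 CPM after culture. Cdh5 of endothelium had at most 1 count, Pax5 of B cells at most 2 and Cd3e of T cells at most 4. Lck, a kinase of T cells, had 37 to 216 counts, Csf1r, a receptor of monocytes and macrophages, 4 to 193, and Cpa3, a mast cell protease, 8 to 392, so none of these was at 0 in any library. Hba-a1, adult alpha globin, had 460 counts in fresh replicate 2, 58 in cultured replicate 5 and at most 1 in the others. Hbb-bt, an adult beta globin, was present in all 10 libraries, at 315, 40.7, 14.2 and 207 CPM against 9.62 to 96.9 CPM.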

How the data were processed

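RNA was sequenced as paired 75-base reads, and the authors deposited 1 table of estimated counts (expected counts, whole numbers) per gene symbol for all samples; kallisto and mm10 are named per the submitters' processing notes, with no version given in the sources used here. The members and gene lists were chosen with earlier results of these data known. Libraries under 100000 counts or 10000 detected genes were left out. Counts were fitted with edgeR 4.0.16 in R 4.3.3 (filterByExpr, TMM, robust dispersion and quasi-likelihood test, Benjamini-Hochberg over 10242 genes, threshold 0.05), once with 1 term per group and once with group by odd or even mouse number. The scripts were tested on simulated data. Alternatives used limma 3.58.1 and DESeq2 1.42.0, other filters, scaling and library sets, a replicate block and single libraries left out.

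Genes were named by rule: the 8 per direction with the smallest unadjusted p at 10 CPM or more over all mice (since none was called), up to 4 per direction called in the interaction, up to 4 list members of smallest p with up to 3 of highest level, and a set list of stem cell genes. A few genes that the rule names are not reported here. Genes called within a parity, Mfsd9, Rpl37a, Cox7c, Abi3 and Litaf were named after their values were seen. Of 1302 list entries 1294 matched the table's symbols. Gene coordinates are from GENCODE M21 (mm10), with 97.9% of tested genes having a transcript length there. Fold changes of genes at 0 use a floor of 3 counts per library, which covers counting error only. Replicates are separate mice per the labels' design text, so equal numbers pair samples. Deviations from the group means correlated at -0.117, 0.172, -0.126 and 0.231 for the same-numbered pairs 2, 3, 5 and 6.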

Additional observations from a re-analysis of the deposited data

Results flagged for a closer look

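The culture effect differed between even-numbered and odd-numbered mice in 5 genes by the interaction term of edgeR's test, given as even minus odd on the log2 scale: -3.22 for Wdfy1, -3.12 for Ctla2a, -4.53 for Csf2rb2, 2.47 for Anxa2 and 1.84 for Cenpa.

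Of 194 groups of values examined for a library far from the rest of its group by Dixon's criterion, 16 (8.25%) held one, where chance gives about 5%. Fresh replicate 5 was far above the other libraries labelled fresh for the granule genes Mpo (3112.12 CPM, next 85.1), Ctsg (721.1 CPM, next 19.7) and Elane (312 CPM, next 3.49). Cultured replicate 6 was highest of its group for the same 3 genes, at 3165.27, 590.1 and 215.9 CPM. Cultured replicate 4 was lowest for Rpl37a (69.99 CPM) and Cox7c (66.91 CPM). Cultured replicate 3 was highest for Car9 (58.12 CPM), Slc2a1 (113 CPM) and H2-Q6 (62.93 CPM), and cultured replicate 5 for H2-Q7 (133.6 CPM) and Cd79b (78 CPM). Fresh replicate 2 was highest for Cenpb (48.95 CPM) and lowest for Slc2a1 (26.41 CPM), and fresh replicate 3 was highest for Top2a (443.5 CPM).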

How the results depend on the processing

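Counts of called genes are given in the order odd-numbered mice, even-numbered mice and interaction (9, 12 and 5 in the reported fit). They were 1, 0 and 0 with all 12 libraries or all 18, 12, 11 and 11 with the 15 libraries of the series that pass the depth rule, 315, 365 and 296 without a low-count filter (27 genes called alike in both parities), 150, 127 and 114 with DESeq2 (6 alike), 1, 21 and 3 with limma-voom, and 2, 0 and 1 against a 1.5-fold change. The replicate block gave 32, 11 and 62. Over all mice, where 0 were called, 10 were called with DESeq2, 1 with limma-voom and 7 with odd or even number as a term, and the replicate block changed no call there. Leaving out 1 library gave 0 to 1 over all mice, 2 to 20 in odd-numbered mice, 0 to 21 in even-numbered mice and 1 to 36 for the interaction.

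For genes named in the text, 2246 of 2542 values under an alternative kept direction and side of the threshold, 250 lost and 18 gained the call, and 28 turned sign (for uncalled genes, by more than the standard error). With all 12 and all 18 libraries the log2 fold changes became 0.157 and 0.151 for Kit, 0.358 and 0.36 for Myc, -0.119 and -0.138 for Cd63, 0.317 and 0.308 for Ldha, 0.233 and 0.228 for Gapdh, -0.301 and -0.312 for Cd79b, and -0.208 and -0.229 for Cd96 in even-numbered mice. With limma-voom they became -0.465 for Htra3, -0.579 for Csf2rb2, -0.165 for Cd79b and -0.098 for Cd63. With odd or even number as a term they became -0.134 for Csf2rb2 and -4.821 for Mpo. With the replicate block they became 3.178 for Ctsg (2.917 over 15 libraries) and 2.73 for Elane. Without fresh replicate 5 they became 4.423 for Ctsg and 5.355 for Elane, and without fresh replicate 3 0.216 for Kit and 0.325 for Mecom. Without cultured replicate 5 it became -0.164 for Cd79b. With 1 library left out the values ran from -1.512 to 4.423 for Ctsg, -2.81 to 5.355 for Elane, -0.277 to 0.216 for Kit, -0.164 to 0.369 for Cd79b and -0.324 to 0.325 for Mecom. The cause was not tested.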
